A study of Mus musculus with 15 samples.

Results

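The H3K27ac peaks of mouse chromosome 15 were examined in a tumor from a mouse model of fusion-positive rhabdomyosarcoma (FP-RMS). FP-RMS is a cancer of soft tissue in which PAX3 is fused to FOXO1 (P3F). Chromosome 15 held 5718 of the 122375 peaks of the deposited list, and every peak of the chromosome was a member. The chromosome was chosen by its peak density in this same list, so its density is given as a description and not tested. The series held 15 CUT&RUN libraries, of which 6 were made with an H3K27ac antibody from MCP tumors and 3 from TCP tumors, and 3 MCP and 3 TCP libraries were made with IgG. The list used here came from the H3K27ac library MCP replicate 5, which stands alone, so there are no replicates. MCP mice carried Myf6-Cre together with the alleles Cdkn2a(Flox/Flox) and Pax(3P3F/P3F) and the reporter R26-tdTom. The second allele is spelled as in the labels, and the study writes it Pax3(P3Fm/P3Fm). Cre from a myogenic locus turned on P3F, removed Cdkn2a and marked cells with tdTomato, and TCP mice carried the same alleles with Tek-Cre instead, so that P3F and the loss of Cdkn2a were common to every tumor. The labels gave no age of the mice and no treatment. The cells came from a dissociated tumor and were sorted as live cells with DAPI as the marker. The study's methods call them tumor cells, and whether a tdTomato gate was set for these libraries is not given in the sources used here. The study presents its profiled MCP tumors as FP-RMS, but it also reports several tumor types in MCP mice. In a pool of sorted cells, a small share of cells with a mark and a weak mark in every cell cannot be told apart.

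H3K27ac is acetylation of a lysine in the tail of histone H3. It sits on nucleosomes beside active promoters and enhancers, the DNA elements that start transcription and that raise it from a distance. In CUT&RUN, an antibody brings a nuclease to the mark, the released fragments are sequenced, and IgG, which recognizes no particular mark, gives the background. Chromosome 15 carries Myc with the long noncoding RNA gene Pvt1, the HOXC cluster, the type II keratins, the Ly6 family and a stretch of cadherin genes in a gene desert. The gene-rich end of the chromosome holds many genes of the cytoskeleton, translation and chromatin.

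To show what the peaks are at the level of sequence, the 151 bp around the summit of the strongest peak is printed for each of the 5 densest 5 Mb blocks, along with that of the strongest peak whose nearest start site was that of Pvt1. The blocks were numbered from the first base of the chromosome. Coordinates are mm10 on the plus strand, and capitals mark CG and any run of a 2-base unit over at least 20 bases. The windows lay at chr15:76477689-76477839 in Hsf1, chr15:83349457-83349607 in Arfgap3, chr15:55196362-55196512 in Deptor, chr15:96635182-96635332 in Slc38a1, chr15:38176026-38176176 between genes, and chr15:62044121-62044271 in Pvt1.
Hsf1 intron, block 16: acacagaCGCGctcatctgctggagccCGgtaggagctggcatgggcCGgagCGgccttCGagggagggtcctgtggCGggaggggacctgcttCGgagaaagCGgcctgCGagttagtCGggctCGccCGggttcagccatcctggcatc
Arfgap3 intron, block 17: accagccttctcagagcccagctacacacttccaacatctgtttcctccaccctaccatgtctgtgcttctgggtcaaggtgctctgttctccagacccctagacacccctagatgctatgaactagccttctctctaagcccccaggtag
Deptor intron, block 12: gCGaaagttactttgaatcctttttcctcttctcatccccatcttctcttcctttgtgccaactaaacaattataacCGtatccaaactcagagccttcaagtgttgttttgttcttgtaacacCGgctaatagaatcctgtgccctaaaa
Slc38a1 intron, block 20: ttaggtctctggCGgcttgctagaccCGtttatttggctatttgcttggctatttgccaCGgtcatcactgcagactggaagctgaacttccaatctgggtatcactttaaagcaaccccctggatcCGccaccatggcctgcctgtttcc
between genes near Odf1, block 8: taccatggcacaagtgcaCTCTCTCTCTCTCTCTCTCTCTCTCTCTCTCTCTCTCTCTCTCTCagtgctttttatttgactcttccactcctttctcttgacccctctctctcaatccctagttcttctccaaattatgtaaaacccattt
Pvt1 intron, block 13: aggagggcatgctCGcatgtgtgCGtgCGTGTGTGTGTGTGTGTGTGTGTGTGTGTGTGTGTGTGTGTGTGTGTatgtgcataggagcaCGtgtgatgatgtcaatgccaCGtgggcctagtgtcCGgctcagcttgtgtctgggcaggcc
The sequences differed widely. The window in Hsf1, the gene of the heat shock transcription factor, lay 0.402 kb from a start site and held 13 CG with a GC content of 68.2%. The window in Arfgap3, the gene of a Golgi regulator, held none, and that in Deptor, the gene of an mTOR inhibitor, held 3 and was 39.7% GC. The strongest peak of the chromosome carried a CT run of 44 bases, and the Pvt1 peak carried a GT run of 46 bases.

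Chromosome 15 had 54.96 peaks per Mb against 44.9 over all chromosomes, a ratio of 1.22 (Wilson 95% interval 1.19 to 1.26). Intervals of counts and shares cover counting error only. The direction turned for the peaks at the lowest local IgG background alone, which on chromosome 15 had 0.901 (0.865 to 0.939) times the density on the autosomes without chromosomes 1, 6 and 11, an alternative chosen after seeing the data. Chromosomes 11, 1 and 6 were denser. The other autosomes without these 3 had 44.7 peaks per Mb together. At the density of the list the chromosome would have held 4672 peaks, so it held 1046 more. That density includes chromosomes X and Y, which had 9.96 and 0.0109 peaks per Mb and lower it. Against all autosomes alone the ratio and the surplus would be smaller, and they were not computed.

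The peaks were spread unevenly. Among the 21 blocks of 5 Mb, 13 lay above the density of the list and 8 below, or 61.9% above, which became 45.5% in blocks shifted by 2.5 Mb and 42.9% in blocks of 1 Mb. Blocks 2, 14 and 15 lay only just above it, at 46.6, 46.0 and 45.2 peaks per Mb against 44.9. In the 5 Mb blocks, the densest block had 66.5 times the density of the sparsest. The blocks above the list held 2061 peaks more than at its density, and those below held fewer, a difference of -1015. The 5 densest blocks, which make up 24.0% of the length, held 2693 peaks or 47.1% of the total (45.8 to 48.4%). The share in the same fraction of blocks was between 37.0 and 50.7% on the other autosomes and was larger on chromosomes 4, 14 and 18. The median block had 46.6 peaks per Mb, which ranked 9 among the 21 chromosomes, and the spread of the blocks relative to their mean ranked 3 among the 19 autosomes.

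**Figure D1:**
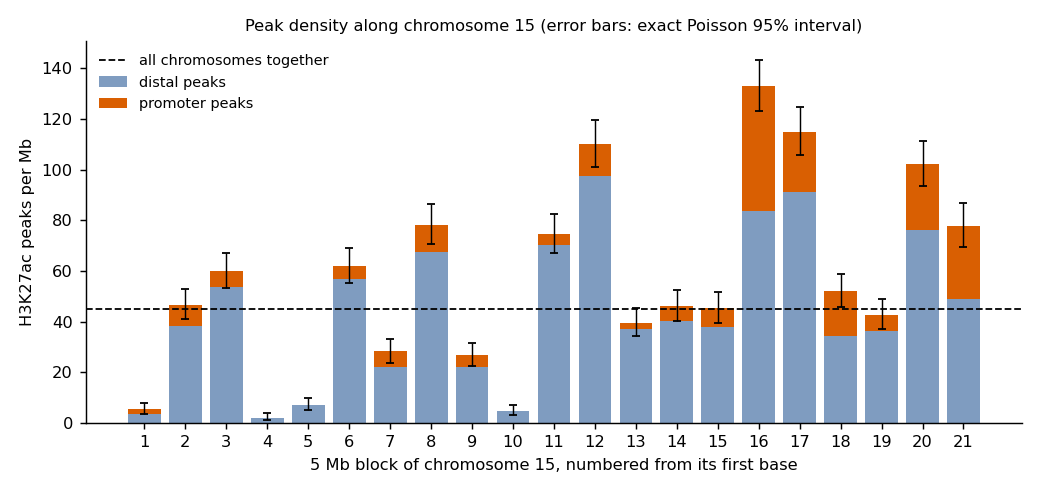
H3K27ac peaks per Mb in the 21 blocks of 5 Mb along chromosome 15 (the last block is shorter), with distal peaks in blue, promoter peaks in orange and exact Poisson 95% intervals. The dashed line is the density of all chromosomes together, X and Y included, 44.9 peaks per Mb. Blocks 16, 17, 12 and 20 exceed 100 peaks per Mb, and blocks 1, 4, 5 and 10 lie under 10.

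The dense blocks lay mostly toward the distal end. From 75 Mb to the end of the chromosome there were 87.4 peaks per Mb, and 42.4 before. Block 16, between 75 and 80 Mb, had 133.0 peaks per Mb (Poisson 95% interval 123.1 to 143.5). Block 17, next to it, had 115.0 (105.8 to 124.8). The intervals of these neighbors overlapped slightly, and neither reached that of block 8, which had 78.2 peaks per Mb (70.6 to 86.3) and was the last of the 5. Block 12, between 55 and 60 Mb, had 110.2 peaks per Mb (101.2 to 119.8), and block 20 had 102.2 (93.5 to 111.5). The intervals of blocks 17, 12 and 20 overlapped each other, so their order is not resolved. Block 21 had 77.7 and block 11 had 74.6, close to block 8.

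At the other extreme, blocks 1, 4, 5 and 10 had under 10 peaks per Mb, with 2.00 in block 4 as the lowest, and held 96 peaks in all. Block 1 holds 3.05 Mb of undetermined bases. The 12 blocks between the densest and the sparsest ranged from 26.6 to 77.7 peaks per Mb. In windows of 1 Mb, 10 of 105 held no peak, whereas 20 held at least 100 peaks each and together 51.4% of the chromosome's peaks. The richest window, from 77 to 78 Mb, held 221 peaks.

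Chromosome 15 was compared with 387 blocks on the other autosomes without chromosomes 1, 6 and 11. Those blocks had the wider full range, from 0 to 154.0 peaks per Mb. The 10th and 90th percentiles of chromosome 15 were 5.40 and 110.2 peaks per Mb, against 12.8 and 78.1. Its 25th percentile was higher, 28.2 against 23.1. Its median was close, 46.6 against 45.6. Of its blocks, 7 lay above the upper quartile of the others and 4 below the lower quartile. These comparisons describe 1 list, and neighboring blocks share a library and sequence composition.

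Peak density followed gene density in part. Chromosome 15 had 11.5 RefSeq start sites per Mb, and its 5 densest blocks held 608 of its 1197 start sites (50.8%). Over the 21 blocks, peaks per Mb and start sites per Mb had a Spearman rho of 0.765, against 0.626 over the 387 other blocks, given as a description. With GC content in place of start sites the values were 0.768 and 0.667, and the part of each was not tested. In its 4 blocks with at least 100 start sites chromosome 15 had 108.4 peaks per Mb, the autosomes without chromosomes 1, 6 and 11 had 65.0 in such blocks, and chromosomes 1, 6 and 11 had 107.1. With 50 to 100 start sites the values were 65.1, 55.2 and 78.5, and with 25 to 50 they were 49.85, 40.4 and 51.4. In the 7 blocks with under 25 start sites the pooled values were 28.8, 19.8 and 23.7, but the median block of chromosome 15 had 7.20 peaks per Mb there, against 15.7 on the autosomes without chromosomes 1, 6 and 11. Block 12 departed most among the dense blocks, with only 39 start sites and 14.1 peaks per start site, while block 16 had 237 start sites and 2.81. Block 11, with 20 start sites, had 18.65 peaks per start site, the highest ratio of the chromosome.

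**Figure D2:**
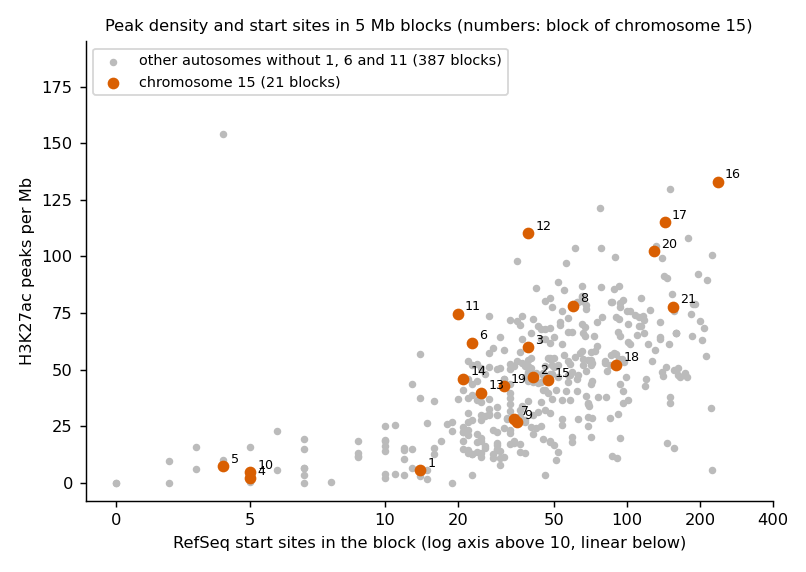
Each point is a 5 Mb block, with its RefSeq start sites on the horizontal axis and its H3K27ac peaks per Mb on the vertical axis. The 21 blocks of chromosome 15 are orange and numbered, and 387 blocks of other autosomes without chromosomes 1, 6 and 11 are grey. Blocks 16, 17, 20 and 21 have more than 100 start sites, whereas block 12 reaches 110.2 peaks per Mb with 39.

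Genes in the dense blocks were ranked by the number of summits within the gene or 10 kb of it. In block 16, Myh9, a nonmuscle myosin heavy chain, had 66 peaks. Rbfox2, a splicing factor active in muscle, had 56, with 9 at its promoters reaching 11.9-fold over background. Plec, which encodes the linker protein plectin, had 50 within a span of 60.4 kb, of which 23 were at its several promoters. Each of these genes held under 10% of the block's peaks.

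In block 17, Mrtfa, an actin-regulated coactivator of serum response factor, had 70 peaks. Parvb, an adaptor at focal adhesions, had 48, and Pacsin2, a membrane-bending protein, had 47. In block 12, Mtss1, which shapes membrane and actin, had 97 peaks, or 17.6% of the block. Nsmce2, a SUMO ligase in DNA repair, had 73, and Deptor had 33. Mtss1 and Nsmce2 lie within 1 Mb of each other, and the window from 59 to 60 Mb, which holds Nsmce2 and part of Mtss1, had 200 of the block's 551 peaks.

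In block 20, Ano6, a phospholipid scramblase, had 64 peaks, the actin-binding gene Lima1 had 51 and the glutamine transporter gene Slc38a1 had 44. In block 8, Ywhaz, which encodes a phosphoprotein-binding adaptor, had 36 peaks in a span of 32.7 kb, and Vps13b, a Golgi protein gene with a span of 560.1 kb, had 30. All of the genes named in these blocks had at least 1 promoter peak.

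Over the whole chromosome, the gene with the most peaks was Cdh6, which encodes a cadherin of muscle, kidney and neural crest. It had 114 peaks over a span of 145.0 kb and lay in block 3, which had 59.8 peaks per Mb. Myo10, a myosin of filopodia, and Mtss1 followed with 97 each, then Pvt1 with 77 and Trio, a guanine nucleotide exchange factor, with 74. Cdh6, Myo10, Pvt1 and Trio lay outside the 5 densest blocks. Counts scale with span, and per 10 kb of gene and flank Cdh6 had 6.91 peaks, Myh9 6.50, Mtss1 6.03, Pvt1 3.18 and Trio 2.35. Several shorter genes exceeded Cdh6 by this measure, among them Ly6e with 8.84, Ly6a with 8.64 and Rarg with 8.22.

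Peaks were also clustered at short range. Joining peaks within 1 kb of each other left 2207 regions, or 2.59 peaks per region. Of these regions, 308 (14.0%, against 12.3% on the other chromosomes) held at least 5 peaks, and together 38.8% of the chromosome's peaks. The region with the most peaks, 26 over 16022 bp, lay at Cdh6 (chr15:13127881-13143902). Others lay at Plxnb2, a semaphorin receptor, with 22 peaks, at Mtss1 with 21, and in a stretch with no RefSeq gene at chr15:85672433-85689662 with 23.

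The median strength of the peaks varied little along the chromosome. The median fold enrichment over the local IgG background was 5.17 (lower quartile 4.36, range 2.29 to 25.4), and on the other autosomes without chromosomes 1, 6 and 11 it was 5.22. At the summit there were between 7 and 59 fragments, with a median of 13 and quartiles of 10 and 17, and counting error at the median was 27.7%. In the 20 blocks with at least 20 peaks the median fold lay between 4.42 and 5.35, while their density ran from 4.60 to 133.0 peaks per Mb. The lowest value was that of block 10, which had 23 peaks. The 5 densest blocks had a median fold of 5.22 and the 4 sparsest blocks 5.07. The share of peaks among the strongest 25% of the whole list by q-value varied more. It was 26.6% in the 5 densest blocks, 25.7% in the 12 between and 14.6% in the 4 sparsest, which held only 96 peaks. Peaks of at least 10-fold made up 3.99% on chromosome 15 and 4.34% elsewhere.

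Widths ran from 78 to 7024 bp, with a median of 163 bp and quartiles of 101 and 323 bp, and the median was 162 bp on the other autosomes without chromosomes 1, 6 and 11. Among the same 20 blocks, medians ran from 131 bp in block 1 to 198 bp in block 6. Pooled by class, the median was 169 bp in the 5 densest blocks, 160 bp in the 12 between and 132 bp in the 4 sparsest, over 2693, 2929 and 96 peaks. Single blocks did not all follow this order. Block 8, among the 5 densest, had 154 bp, and block 2, with 46.6 peaks per Mb, had 174 bp. Peaks of 1 kb or wider numbered 281 (4.91%, against 4.73% on the other chromosomes). Peaks covered 1.64% of chromosome 15 and 1.33% of all chromosomes.

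**Figure D3:**
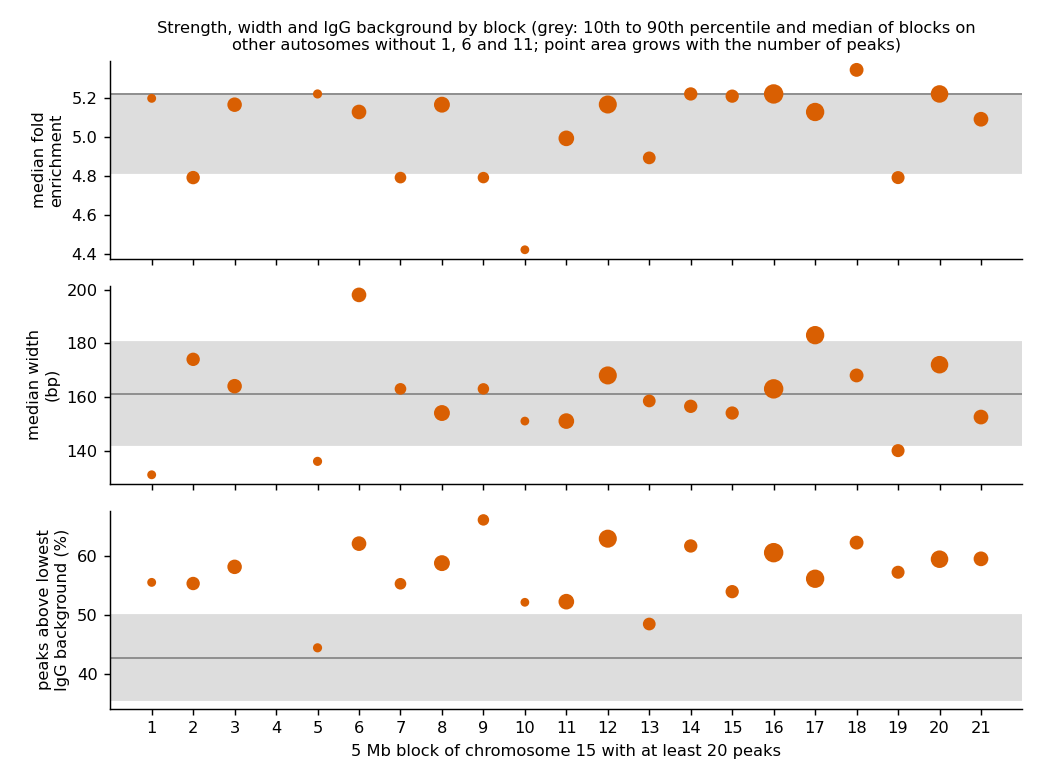
Median fold enrichment, median width in bp and the percentage of peaks above the lowest IgG background in each 5 Mb block of chromosome 15 with at least 20 peaks, with point area growing with the number of peaks. The grey band spans the 10th to 90th percentile of blocks on the other autosomes without chromosomes 1, 6 and 11, and the line is their median. Block 10 has the lowest median fold, 4.42, and block 6 the widest median, 198 bp, whereas 18 of the 20 background values are at least 50%.

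The strongest peak, at chr15:38174816-38178384, had a fold of 25.4 and 59 fragments and lay 43.1 kb from the start site of Odf1, a sperm tail gene. The next, at chr15:85655916-85658986, had a fold of 22.5 and lay 45.8 kb from Lncppara. The third, at 21.6-fold, lay 0.715 kb from the start site of Arfgap3 and was at a promoter. The other 7 of the 10 strongest lay in introns, with folds between 16.8 and 18.1. Those nearest to the start sites of Gm48957, Deptor, Slc38a1 and Prkag1 lay within these genes. The remaining peaks lay within other genes than that of the nearest start site. These were Ptk2 (Mir151 nearest, 13.4 kb away), Nsmce2 (Trib1, 49.1 kb) and Pced1b (Amigo2, 125.9 kb). Only the peaks of Arfgap3 and Prkag1, an AMP-activated kinase subunit, were at promoters.

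The widest peak, at chr15:67142204-67149227, spanned 7024 bp in an intron of St3gal1, a sialyltransferase gene. It had a fold of 13.01 and 43 fragments. The second, of 5661 bp at chr15:85663973-85669633, lay 36.2 kb from Lncppara and a few kilobases from the second strongest peak. The others of the 5 widest were nearest to the start sites of Cdh6 (4173 bp, 192.9 kb away), Ndufb9 (3624 bp, 56.4 kb away within Mtss1) and Ly6e (3587 bp, 23.6 kb away). The Ndufb9 peak had a fold of only 5.33, the lowest of the 5, and a local background of 4.00 fragments per position. None of the 5 was at a promoter.

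Promoters were taken as 2 kb either side of a RefSeq start site. They held 1105 of the peaks (19.3%), and the other 4613 were distal. Promoter peaks had a median fold of 5.35 and a median width of 191 bp, and distal peaks 5.05 and 159 bp. Block 16 had the largest promoter share, 37.1%, whereas blocks 4, 5 and 10 had no promoter peak. By summit, 60.9% lay in introns, 34.5% between genes and 4.57% in exons. Distal peaks alone gave 44.3 per Mb on chromosome 15 against 35.1 over all chromosomes, X and Y included. The 5 densest blocks held 1203 distal peaks more than at that density.

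Of 760 protein-coding genes on the chromosome, 372 (48.9%, 45.4 to 52.5%) had a promoter peak, against 45.6% of all 21000 protein-coding genes. The share was 53.2% of 391 genes in the 5 densest blocks (48.2 to 58.1%) and 44.4% of 369 genes in the others (39.5 to 49.5%). The intervals overlapped. The densest blocks were chosen by counts that include promoter peaks, so these shares depend in part on that choice. Block 12 had 23 of 32 genes and block 16 had 83 of 157. Block 15, which contains part of the Ly6 cluster, had 9 of 35.

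Lists of genes on the chromosome were set beside that background of 45.6%, with no test. Among genes of chromatin regulation, 14 of 17 had a promoter peak. Hdac10, a deacetylase, reached 13.2-fold, Arid2, a remodeler subunit, 12.5-fold, the histone fold gene Chrac1 11.25-fold and the acetyltransferase gene Ep300, whose product writes H3K27ac, 10.4-fold. Cbx6, Tonsl and Ankrd33b had none. Ankrd33b and Racgap1, which acts in cell division, are not known as chromatin regulators and were kept as listed. Of 16 genes of translation and core metabolism, 14 had such a peak, led by the initiation factor genes Eif3e (12.7-fold) and Eif3h (11.25-fold) and the ribosomal genes Rpl8 (10.2-fold) and Rpl30 (9.53-fold), and Rpl3 and Xrcc6 had none. All 6 genes on the chromosome from the study's list for the proliferation state had a promoter peak, including Troap (8.24-fold), Rad21, a cohesin subunit (7.64-fold), and Atad2 (7.65-fold).

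Transcription factor genes had a promoter peak in 15 of 27 cases. Trps1, a GATA-type repressor, reached 14.7-fold and had 54 peaks within 10 kb, Hsf1 reached 13.4-fold, and Rarg, a retinoic acid receptor, had 14 promoter peaks reaching 13.01-fold. Atf1 reached 10.1-fold. Sox10 of neural crest, Vdr, Sp7 of bone and Nr4a1 had none, with the nearest summit to Vdr at 67.9 kb.

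At the MYC locus, Myc had 5 promoter peaks, the strongest at 5.72-fold with 13 fragments, near the median of the chromosome. Pvt1, which begins beside it, had 2 promoter peaks reaching 12.7-fold with 42 fragments. Trib1, a pseudokinase gene, had 5 reaching 7.41-fold and Asap1, an Arf regulator, had 3 reaching 5.55-fold. Lratd2 and Adcy8 had no peak within 10 kb, and the nearest summits lay 284.1 kb and 444.5 kb from their start sites.

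The HOXC cluster and most keratin genes were without called peaks. None of the 10 HOXC members (Hoxc4, Hoxc5, Hoxc6, Hoxc8, Hoxc9, Hoxc10, Hoxc11, Hoxc12, Hoxc13 and Hotair), which pattern the body axis, had a peak within 10 kb, and the nearest summit lay at least 128.8 kb from any of their start sites. Of 27 keratin genes, 3 had a promoter peak: Krt8 (7.999-fold), Krt80 (6.66-fold) and Krt18 (4.46-fold), which is a type I keratin in the type II cluster. Skin keratins such as Krt1 and Krt5 had none. These lie in the last block, which had 77.7 peaks per Mb, so a dense block held long stretches without a called peak. In the Ly6 cluster 4 of 15 genes had a promoter peak, namely Ly6e (8.29-fold), Ly6c1 (8.24-fold), Ly6a (7.80-fold), which encodes the progenitor marker SCA1, and Ly6g (5.55-fold), whereas Ly6d, Ly6h, Ly6k and Psca had none.

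Genes of single cell types gave mixed counts. In the muscle list 4 of 9 had a promoter peak, Rbfox2 at 11.9-fold, Parvb at 9.22-fold, Mrtfa at 7.70-fold and Myh9 at 6.02-fold, and none of these is confined to muscle. The genes of myoglobin and of the atrophy ubiquitin ligase Fbxo32 had no promoter peak but 25 and 15 peaks within 10 kb, and Pvalb had neither. On other chromosomes, none of 5 defining muscle genes (Myod1, Myog, Myf5, Des and Chrna1) had a promoter peak, nor any of 4 endothelial genes (Cdh5, Pecam1, Tek and Kdr) or of 3 leukocyte genes (Ptprc, Spi1 and Cd3e). These markers were chosen after the results were seen. Only promoter peaks were counted for them, so peaks farther from these genes are not described. On chromosome 15, endothelial and vessel genes had 1 of 5, Itga5 (7.77-fold), without Acvrl1, Angpt1 and Pdgfb. Leukocyte genes had 5 of 11, close to the background, with Card6 at 12.97-fold, Fyb at 9.96-fold and Apobec3 with 10 promoter peaks, and without Csf2rb, Ncf4 and Rac2. Their part in the list was not tested.

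Several further lists lay below the background. Matrix and fibroblast genes had 4 of 13, with Itgb7 at 9.47-fold and Has2, a hyaluronan synthase with 32 peaks, at 8.59-fold, and without Col2a1, Col14a1 and Fbln1. Cytokine and growth factor receptors had 4 of 11, led by Il2rb (5.94-fold), and WNT and adhesion genes 4 of 11, led by Dab2 (12.97-fold) and the focal adhesion kinase gene Ptk2 (8.29-fold), without Wnt1, Wnt7b and Wnt10b. None of 10 neuronal genes, among them Arc and Kcnq3, had a promoter peak. Of the study's other lists, the mesenchymal state had 5 of 7 (Lgals1 at 9.10-fold), interferon 2 of 3, apoptosis 1 of 3, DepMap 2 of 2 and hypoxia 1 of 1, and the NIH, muscle state and endothelial factor lists had 0 of 1 each.

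**Figure D4:**
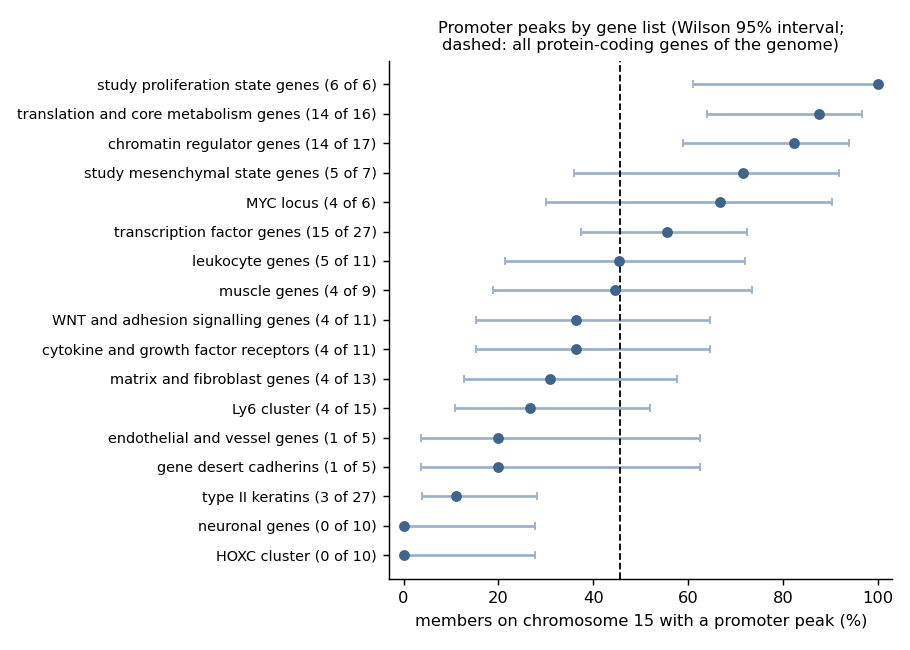
Percentage of each list's members on chromosome 15 with a promoter peak, with Wilson 95% intervals, for lists with at least 5 members there. The dashed line is 45.6%, the share of all protein-coding genes, and 6 of 17 lists lie above it.

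The longest stretch without a peak ran over 2.73 Mb at chr15:15090358-17820187 and held Cdh9, between Cdh6 and Cdh10. The third longest, 1.84 Mb at chr15:17836749-19675801, held Cdh10, on the way to Acot10. Of the 5 desert cadherins, Cdh6 had a promoter peak (6.23-fold) and Cdh9, Cdh10, Cdh12 and Cdh18 had none. The second, 2.26 Mb at chr15:86432170-88697066 between Cerk and Zbed4, touched Brd1, Tafa5, Tbc1d22a and Zdhhc25. The fourth, 1.75 Mb between Dnah5 and Dap, held Ctnnd2, a catenin of neurons, and the fifth, 1.36 Mb between Ebag9 and Csmd3, held Kcnv1 and overlapped part of Sybu. No number was absent from the peak names at any of these stretches.

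The local IgG background of the peaks differed between chromosomes, and along chromosome 15 it varied less than the density did. Its lowest value was 1.05 fragments per position, and 3340 peaks of chromosome 15 (58.4%, 57.1 to 59.7%) lay above that. The share was between 39.7 and 47.7% on 15 other autosomes and 81.0% on chromosome 1, 84.6% on chromosome 6 and 75.3% on chromosome 11, so the 4 densest chromosomes had the 4 largest shares among the autosomes. Within chromosome 15, blocks with at least 20 peaks ran from 44.4 to 66.2%, and 20 of 21 blocks exceeded the median of the blocks on the other autosomes. Peaks per Mb and this share had a Spearman rho of 0.534 over the 21 blocks of chromosome 15. Over the blocks with peaks on those other autosomes the rho was 0.112, given as a description. The share was 59.7% in the 5 densest blocks and 47.9% in the 4 sparsest. For distal peaks the share was 56.4%, against 41.0% on those other autosomes, and for promoter peaks 66.7% against 50.7%.

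Divided by this background, chromosome 15 had 22.9 peaks per Mb at the lowest value and 32.1 above it. The 15 other autosomes together had 25.4 and 19.3, with ranges of 21.6 to 28.8 and 14.2 to 24.6. The chromosome ranked 15 of 21 for peaks at the lowest background and 4 for the rest. The 5 densest blocks were dense in both classes, with 43.4 peaks per Mb at the lowest background and 64.3 above it. The part of the IgG background in the density was not tested.

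**Figure D5:**
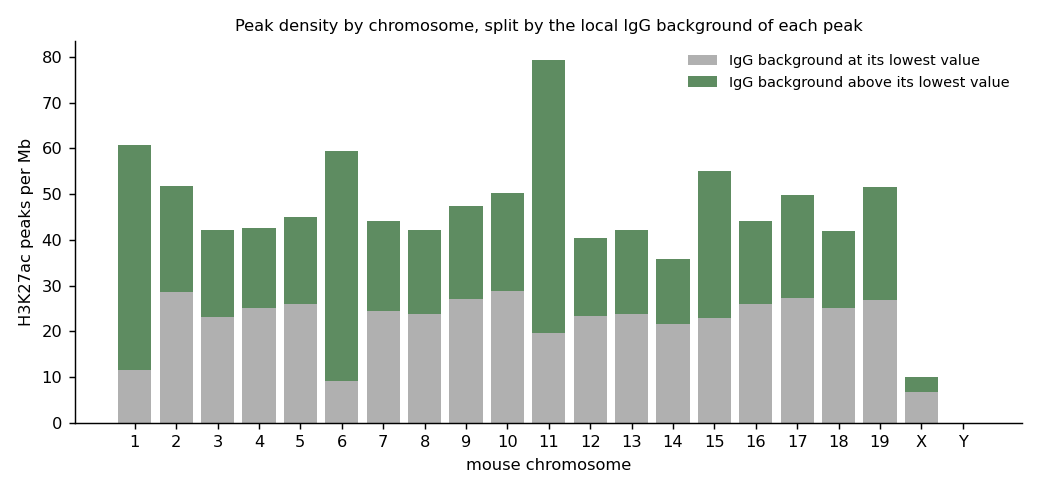
H3K27ac peaks per Mb on each mouse chromosome, divided into peaks at the lowest IgG background (grey) and above it (green). Chromosome 15 has 22.9 and 32.1 peaks per Mb in these classes, and chromosomes 1, 6 and 11 also have a tall green part. Chromosome Y has 1 peak, too few to see.

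Sequence motifs within 151 bp of the summit were counted on both strands. The AP-1 site TGANTCA was in 5.46% of chromosome 15 windows (4.90 to 6.08%), in 5.79% on other chromosomes and in 4.60% of equal windows 2 kb away. The E-box CAGCTG, bound by myogenic factors, was in 8.73% (8.02 to 9.49%), against 7.59% elsewhere and 7.10% at 2 kb. The forkhead site TGTTTAC or its complement was in 2.08%, below its share of 2.76% at 2 kb on chromosome 15, and elsewhere it was in 2.42%, above the 2.16% at 2 kb there. A paired homeodomain form, TAAT and ATTA with 3 bases between, was in 0.297% on chromosome 15 (17 windows, 0.186 to 0.476%) and 0.321% elsewhere. The shares 2 kb away were higher, 0.455% and 0.380%. Runs of a 2-base unit as in the windows printed for block 8 and Pvt1 were in 3.76% (3.30 to 4.28%), against 3.87% elsewhere and 2.48% at 2 kb. The shares of the first 2 motifs and of these runs were higher at the summits than 2 kb away on chromosome 15, and the interval on chromosome 15 held the value elsewhere for each of the 5 features but CAGCTG. None of the spelled motifs contains another. A match is a description and not a bound site.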

How the data were processed

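Peaks came from 1 H3K27ac CUT&RUN library of 15 in the series, and its group was taken from the labels. The library behind the list was identified by the number that begins the peak names, which matches the description of MCP replicate 5 alone. The replicate number 5 is that of its title, whereas its description numbers it 1. The submitters' processing notes name BWA, SAMtools and MACS2 with builds mm10 and dm6, and the study's methods name bowtie and an early MACS against the IgG library, after removal of problematic regions and an amplified region near Col19a1. The peak caller's release and threshold are thus not settled. The largest q was 0.0453.

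Per the caller's format, the deposited values are the score, the fold enrichment as a ratio to the local background, and the -log10 p and -log10 q of the summit. The background was taken to be that of an IgG library, as in the study's methods. Peak positions, in bp, are as the authors deposited them. From the fold and the p-value in the deposited list, a whole number of fragments and the local background were recovered with the caller's formula at a scale of 0.885, within 0.001 of the -log10 p, which succeeded with a single solution for 99.9% of chromosome 15 peaks. At a scale 3% off, 0.0492% of peaks could be solved. The list states no depth, so these fragments at summits are the only measure of it.

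Densities were counted by summit in 5 Mb blocks. Promoters were 2 kb either side of 31601 RefSeq start sites, and a peak needed 1 bp of overlap. Sequences and genes came from RefSeq on GRCm38.p6, which has the coordinates of mm10. Intervals are Wilson or exact Poisson at 95%. No test was made, because peaks of 1 list are not replicates.

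Named genes were the 3 with most peaks in each of the 5 densest blocks, the 10 with most peaks on the chromosome, the nearest start sites of the 10 strongest and 5 widest peaks, up to 4 list members with the strongest promoter peak and 4 without, and the genes beside the 5 longest empty stretches, and not every gene so chosen is reported here. The chromosome, lists and rules were chosen with earlier results of these data known. Listed genes on other chromosomes were left out, and the study's St. Jude list had no member on chromosome 15. Alternatives were the strongest 25% of the peaks, a -log10 q of at least 5, merging within 1 kb, bases that are not N, distal peaks, other blocks and a 1 kb promoter window. Peak names lacked 30 numbers on chromosome 15 (0.522%), and those peaks were not analysed here. Counting and recovery steps were tested on simulated data. Python 3.11.15, numpy 2.4.6, pandas 2.3.3, scipy 1.17.1 and matplotlib 3.10.9 were used.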

Additional observations from a re-analysis of the deposited data

How the results depend on the processing

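Of 43 alternative values over 10 results, 22 stayed within the counting interval of the reported value or, for counts, within 1.5 times it. The density ratio of 1.22 became 1.26 for distal peaks and 1.18 with peaks merged within 1 kb. Among alternatives chosen after seeing the data, it was 1.23 against the autosomes without chromosomes 1, 6 and 11, and turned to 0.901 (0.865 to 0.939) for peaks at the lowest IgG background, which are fewer where the background is higher by the construction of that class. The densest 5 of 21 blocks, or that share of them, held 45.4% of distal peaks, 44.0% of merged regions, 45.8% per base that is not N and 59.4% in 1 Mb blocks. In the strongest 25% of the peaks the median fold was 7.70, the width 467 bp, the promoter share 26.5%, the share of genes with a promoter peak 31.7% and the share above the lowest IgG background 63.6%. With a -log10 q of at least 5 the first 4 were 6.51, 287 bp, 23.6% and 40.7%. For distal peaks the fold was 5.05 and the background share 56.4%, and a 1 kb window gave a promoter share of 14.4%. Of the 15 leading genes of the densest blocks, 9 remained after merging and 9 in blocks shifted by 2.5 Mb, where Pvt1 and Rarg were among those gained. No paired analysis was possible because 1 peak list of 1 library was used. With a median of 13 fragments per summit, weak or absent peaks are not resolved.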
